A study of Mus musculus with 10 samples.

Results

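Iron entry, storage, export and reduction were followed through 10 genes in the mouse macrophage line RAW264.7, an immortal line that grows in culture. The genes are Tfrc, Slc11a1, Slc11a2, Slc40a1, Fth1, Ftl1, Ireb2, Steap1, Steap3 and Steap4, and they were found by their symbol among the probes that are not controls. They carry 14 probes, of which 13 passed the filter on dim probes, and 9 of the 10 genes were measured among 18051 genes measured in all. Steap4 stayed below the detection limit on all 10 arrays. Steap1 was chosen for its rise in these arrays, so its change against the control is given as a description with no test. The cells were held in 5 groups of 2 arrays. The glucocorticoid groups are Dex, VSG22, VSGC12 and FF, where Dex stands for dexamethasone and FF is read as fluticasone furoate. Those cells received their compound at 100 nM and, 1 hour later, LPS at 1 µg/ml. LPS is lipopolysaccharide, the outer membrane lipid of bacteria that macrophages sense. RNA was taken 16 hours later. VSG22 and VSGC12 are glucocorticoids known here by their code names. The EtoH group is read as cells given solvent without a glucocorticoid, and its labels do not say whether it received LPS, so each comparison with EtoH carries that limit. No group is labelled as left without LPS. All arrays come from 1 cell line, and nothing says that replicates came from separate cultures. The p-values therefore measure only the spread between these samples, which may be technical.

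Most cells take up iron bound to transferrin through the transferrin receptor, reduce it inside endosomes with metalloreductases of the Steap family, and move it into the cytosol through the divalent metal transporter encoded by Slc11a2. Iron that is not used is stored in ferritin, a shell built from the heavy and light subunits encoded by Fth1 and Ftl1, or leaves through ferroportin, the iron exporter encoded by Slc40a1. Macrophages recycle iron from old red cells and release it through ferroportin, and they can hold it back during infection. The iron regulatory proteins, one of which is encoded by Ireb2, bind stem-loops in these mRNAs when iron is scarce, which protects the Tfrc mRNA and blocks translation of the ferritin and ferroportin mRNAs. The arrays measured mRNA, and neither protein nor iron was measured.

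A level here is the log2 processed signal of a probe minus that array's 75th percentile, so 0 is the 75th percentile, and levels of different probes are not compared. A change is called where the adjusted p from the limma fit over all genes is below 0.05. On the 10 arrays, 40.1% to 44.4% of spots were well above background and 0 were saturated, and the number of arrays limits the precision. The SD of the difference between replicates over genes was 0.63 in Dex and 0.33 to 0.41 in the other groups. Of 10 macrophage markers, 10 were measured, with 3 higher and 3 lower for the mean of the 4 glucocorticoids. Their summed level, in units of the array's 75th percentile, was 528 on both EtoH arrays and 625 to 696 on the glucocorticoid arrays. Such a sum adds unlogged levels, so the brightest markers weigh most. The median log2 change of the 10 macrophage markers was -0.02. Of 22 markers of T cells, B cells, fibroblasts, epithelial cells, neutrophils and mast cells, 7 were measured, 3 of them higher (Cd4, Elane and Tpsb2) and 1 lower (Camp), where 44.2% of all genes were called. Elane was not called in 10 of 20 alternatives, Camp in 4 of 20, Cd4 in 3 of 19 and Tpsb2 in 1 of 19. The summed level of those 7 was 56.0 to 66.3 in EtoH, 86.2 to 249.8 in Dex, 190 to 206 in FF, 81.0 to 85.8 in VSG22 and 126 to 153 in VSGC12. None of the 3 B cell markers or the 4 epithelial markers in the list was well above background. The part of these markers in the results below was not tested.

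Across the members, ferroportin mRNA fell and the transferrin receptor mRNA, read by its brightest probe, rose under each of the 4 glucocorticoids. The mRNAs of both ferritin subunits and of Ireb2 were not called. Of the 8 measured genes other than Steap1, 4 were called for the mean of the 4 glucocorticoids against EtoH, 1 higher and 3 lower. Among all genes tested, 44.2% were called in that comparison, 21.6% higher and 22.5% lower, so the members' share is near the background. The median change of the 8 was -0.02, beside -0.00 over all genes. Under Dex, 3 of the 8 were called (2 higher, 1 lower), with 32.2% of all genes called. Under FF it was 4 (1 higher, 3 lower), with 37.1% of all genes. Under VSG22 it was 2 (1 higher, 1 lower), with 30.6%, and under VSGC12 4 (1 higher, 3 lower), with 35.5%. The 4 comparisons share the EtoH arrays. With the array median in place of the 75th percentile, the median over all genes moved to 0.12, and 70.3% of the called genes were higher, against 49.0% as scaled here. The members called for the mean of the 4 were then 2, Tfrc and Slc40a1. The same pair remained called when either EtoH array was left out.

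**Figure D1:**
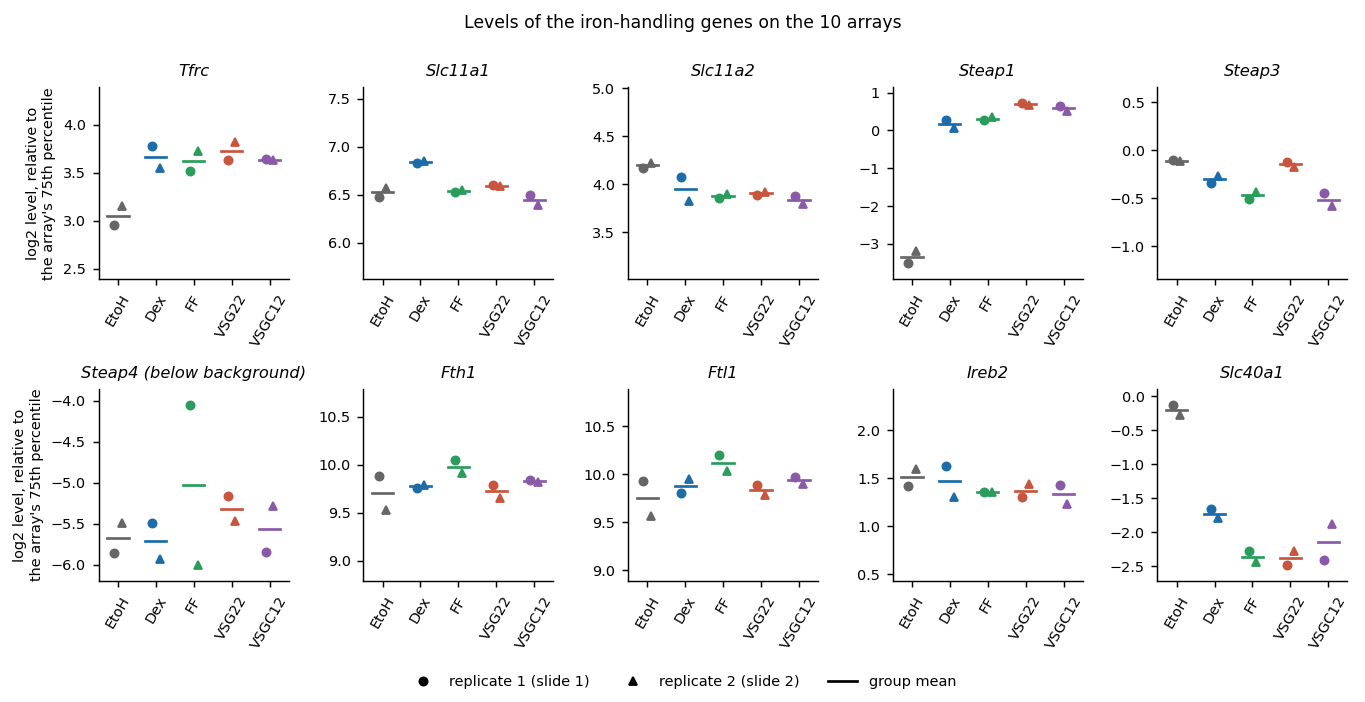
Level of each of the 10 genes on every array (y axis, log2 relative to the array's 75th percentile, a separate range per panel of at least 2 units) by group (x axis), with replicate 1 as circles, replicate 2 as triangles and group means as lines. The 2 EtoH arrays stand apart from the 8 glucocorticoid arrays for Tfrc, Steap1 and Slc40a1, while the EtoH arrays overlap the others for Fth1, Ftl1 and Ireb2. For Slc11a2 and Steap3 the 8 also lie below both EtoH arrays, by a narrower gap.

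Tfrc, which encodes the transferrin receptor, was higher under all 4 compounds by its brightest probe, while its other probes gave differing changes. Its brightest probe (A_52_P228236, 10 spots per array) read 2.96 and 3.15 in EtoH. It read 3.78 and 3.55 in Dex and 3.52 and 3.73 in FF. It read 3.63 and 3.83 in VSG22 and 3.64 and 3.63 in VSGC12. All 8 glucocorticoid arrays lay above both EtoH arrays, and the 4 compounds overlapped with each other. The mean of the 4 was 1.53-fold above EtoH (log2 change 0.61 ± 0.10 SE, adjusted p = 0.0034 by limma). Within slide 1 the change was 0.69 and within slide 2 it was 0.54. The rise was 0.61 in Dex, 0.57 in FF, 0.67 in VSG22 and 0.58 in VSGC12, each with SE 0.13, and each was called, with adjusted p from 0.00854 to 0.0143. Without EtoH replicate 1 none of these 4 was called (0.47 to 0.58, adjusted p 0.0547 to 0.0797). The call under FF was also lost without FF replicate 2 (0.47, adjusted p = 0.0749), that under VSG22 without VSG22 replicate 2 (0.58, adjusted p = 0.0573), and that under VSGC12 without its replicate 1 or 2 (0.58 and 0.59, adjusted p 0.0571 and 0.0573). With the array median, Tfrc was called under none of the 4 compounds (0.71 in Dex, adjusted p = 0.089 by limma). The same held with its probes averaged (0.15 in Dex, adjusted p = 0.388 by limma). With no filter on dim probes, Tfrc was called under VSG22 alone of the 4. In bulk RNA, a change in the RNA of each cell and a change in the share of cells that express a gene cannot be told apart.

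The other probes of Tfrc were not called. The last 30 bases of each 60-base probe are printed because the 3 read separate stretches of the gene, numbered along its strand, and gave differing changes.
Tfrc probe 1 of 3 (A_65_P06446): taagctggaactttcacagaatcaaaatgt
Tfrc probe 2 of 3 (A_51_P167876): caaagttgagaaactttcctttgacaatgc
Tfrc probe 3 of 3 (A_52_P228236): aaccatcattacgcatctaatcagttttgc
Per the array files they lie on the + strand of mm9 at chr16:32620470-32620529, chr16:32624877-32625093 and chr16:32632255-32632314. The second position spans 217 bases for a 60-base probe. No annotation of mm9 was used here, so exons and untranslated regions are not assigned. Probe 2 read -0.12 and 0.04 in EtoH and between -0.34 and -0.03 on the 8 glucocorticoid arrays, of which 4 lay below both EtoH arrays and 0 above. Fitted with every probe as its own row, where 42.8% of probes were called, probe 2 changed by -0.10 (95% interval -0.31 to 0.12, adjusted p = 0.414 by limma). Probe 1 read 2.18 and 1.94 in EtoH and 1.82 to 2.81 on the glucocorticoid arrays, of which 7 lay above both EtoH arrays and 1, in Dex, below both. Its change was 0.32 (95% interval -0.11 to 0.75, adjusted p = 0.197). When the 3 probes were averaged, the change of Tfrc was 0.28 with adjusted p = 0.0554. By compound, probe 1 changed by -0.013 in Dex, 0.29 in FF, 0.46 in VSG22 and 0.53 in VSGC12, with adjusted p over probes from 0.116 to 0.969. Each of the 3 probes was flagged in a local patch in 1 group: probe 2 in EtoH, probe 1 in Dex and probe 3 in FF. With spots in patches left out, Tfrc by its brightest probe was still called under FF (0.59, adjusted p = 0.0131 by limma). No such refit is given for probes 1 and 2, so the part of the patches in the differing changes was not tested.

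Slc11a2, which encodes the divalent metal transporter, was lower by both of its probes. The brighter probe read 4.17 and 4.22 in EtoH and 4.08 and 3.83 in Dex. It read 3.86 and 3.90 in FF, 3.89 and 3.93 in VSG22, and 3.88 and 3.80 in VSGC12. All 8 glucocorticoid arrays lay below both EtoH arrays, Dex replicate 1 by the least. The mean of the 4 was 1.24-fold below EtoH (log2 change -0.30 ± 0.08 SE, adjusted p = 0.0191 by limma). The change was -0.25 within slide 1 and -0.36 within slide 2. By compound, FF (-0.32, adjusted p = 0.0424) and VSGC12 (-0.36, adjusted p = 0.0298) were called, while Dex (-0.25, adjusted p = 0.098) and VSG22 (-0.29, adjusted p = 0.0644) were not. The call on the mean was lost without EtoH replicate 1 (-0.33, adjusted p = 0.0836) or EtoH replicate 2 (-0.28, adjusted p = 0.126), and with the array median (-0.18, adjusted p = 0.559). The call under FF was lost when any array of EtoH, FF, VSG22 or VSGC12 was left out (-0.34 to -0.29, adjusted p 0.0588 to 0.161). That under VSGC12 was lost without any array of EtoH, VSG22 or VSGC12 (-0.40 to -0.32, adjusted p 0.0547 to 0.128). Leaving out Dex replicate 1 brought a call under Dex (-0.37, adjusted p = 0.0251), and leaving out either Dex array brought a call under VSG22 (-0.29, adjusted p = 0.0293).

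The 2 probes of Slc11a2 are shown because both were lower while their changes differed in size.
Slc11a2 probe 1 of 2 (A_52_P254298): ttgatgagaaaatccccattcctgaggagg
Slc11a2 probe 2 of 2 (A_51_P388737): ttgttatAATAAAgttcatgcttaatagct
They lie on the - strand of mm9 at chr15:100240516-100240575 and chr15:100218333-100218392, and the capitals in probe 2 mark AATAAA, the letters of the common polyadenylation signal. AATAAA was searched on both strands of all 55681 probes of 60 bases. On the printed strand 10.1% of them hold it, and 3.74% hold its reverse complement; it was the only motif searched. Probe 1, the dimmer of the 2, read 0.50 and 0.43 in EtoH and -0.86 to 0.17 on the glucocorticoid arrays, all below both EtoH arrays. Its change for the mean of the 4 was -0.74 ± 0.18 SE (adjusted p = 0.0143 over probes), beside -0.30 ± 0.08 for probe 2 in the same fit. Under FF probe 1 changed by -0.86 (95% interval -1.39 to -0.33) and probe 2 by -0.32 (95% interval -0.56 to -0.08). The difference between the probes was not tested.

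Slc11a1, whose product moves divalent metals out of the phagosome of macrophages, was called under Dex alone of the 4. It read 6.48 and 6.57 in EtoH and 6.83 and 6.85 in Dex. It read 6.53 and 6.55 in FF, 6.60 and 6.59 in VSG22, and 6.50 and 6.39 in VSGC12. Both Dex arrays lay above every other array, and the other 3 compounds lay at or near EtoH. Dex was 1.24-fold above EtoH (log2 change 0.31 ± 0.07 SE, adjusted p = 0.0201 by limma), 0.35 within slide 1 and 0.28 within slide 2. The changes under FF, VSG22 and VSGC12 were 0.02, 0.07 and -0.08, with adjusted p of 0.872, 0.531 and 0.446, and the sign of the FF and VSGC12 changes depended on the scaling. For the mean of the 4 the change was 0.08 (95% interval -0.06 to 0.22, adjusted p = 0.301), and with quantile normalization it was -0.0015. The call under Dex was lost without EtoH replicate 1 (0.27, adjusted p = 0.107), EtoH replicate 2 (0.36, adjusted p = 0.0533) or Dex replicate 2 (0.30, adjusted p = 0.0739). It was also lost with the array median (0.41, adjusted p = 0.338) and with quantile normalization (0.18, adjusted p = 0.108).

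Among the metalloreductases, Steap1 had the widest range over the arrays. Steap1 belongs to a family of membrane proteins that reduce iron and copper, although Steap1 itself lacks the domain that supplies electrons in its relatives. It was selected on the contrast with EtoH, so the following values describe that choice. Steap1 read -3.51 and -3.20 in EtoH, and 0.27 and 0.07 in Dex. It read 0.28 and 0.35 in FF, 0.72 and 0.67 in VSG22, and 0.64 and 0.52 in VSGC12. All 8 glucocorticoid arrays lay far above both EtoH arrays, where the probe was still well above background, with processed signals of 27.6 and 39.0 against 415 to 590. The mean of the 4 was 13.9-fold above EtoH, with 11.5-fold in Dex, 12.7-fold in FF, 16.6-fold in VSG22 and 15.3-fold in VSGC12. With the normexp background correction, which adds an offset to each signal, the log2 difference of the mean of the 4 was 2.37 in place of 3.80. By group mean the order was VSG22 (0.69 ± 0.03 SD, n = 2), VSGC12 (0.58 ± 0.08), FF (0.31 ± 0.04), Dex (0.17 ± 0.14) and EtoH (-3.36 ± 0.22). The single probe of Steap1, shown because the widest difference among the members rests on it, ends as follows.
Steap1 (A_51_P484158): atttgcttgttattgatgtcctatcataag
It lies on the - strand of mm9 at chr5:5736369-5736428.

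Steap3, the ferrireductase of endosomes in red cell precursors, gave opposite directions by its 2 probes. The brighter probe read -0.11 and -0.12 in EtoH, -0.34 and -0.26 in Dex, and -0.51 and -0.43 in FF. It read -0.12 and -0.17 in VSG22 and -0.45 and -0.58 in VSGC12. All 8 glucocorticoid arrays lay below both EtoH arrays, with VSG22 next to EtoH. By this probe the mean of the 4 was 1.19-fold below EtoH (log2 change -0.25 ± 0.06 SE, adjusted p = 0.0191 by limma), -0.25 within slide 1 and -0.25 within slide 2. FF (-0.36, adjusted p = 0.0141) and VSGC12 (-0.40, adjusted p = 0.00919) were called, while Dex (-0.19, adjusted p = 0.112) and VSG22 (-0.04, adjusted p = 0.765) were not. The call on the mean was lost without EtoH replicate 1 (-0.24, adjusted p = 0.111) or EtoH replicate 2 (-0.25, adjusted p = 0.1), and with the array median (-0.12, adjusted p = 0.703). That under FF was lost without either EtoH array or FF replicate 1 (-0.36 to -0.32, adjusted p 0.0628 to 0.0699). The other probe read -0.44 and -0.83 in EtoH and -0.46 to 0.12 on the glucocorticoid arrays, 6 of which lay above both EtoH arrays. Its change was 0.37 (95% interval -0.03 to 0.77, adjusted p = 0.118 over probes), and the average of the probes changed by 0.06 (adjusted p = 0.64).
Steap3 probe 1 of 2 (A_55_P2096883): tgggagaaagatggggctgtcaagttcatg
Steap3 probe 2 of 2 (A_55_P2096887): atgtgccccaggcctgccttcattaaattg
These ends are printed because the direction of Steap3 depends on which is read. Probe 2 is the brighter one, and they lie on the - strand of mm9 at chr1:122124269-122124328 and chr1:122123244-122123303.

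Steap4, a ferrireductase induced by inflammatory signals in other tissues, gave processed signals of 5.44 to 20.5, on none of the 10 arrays well above background. The highest reading was FF replicate 1 and the lowest FF replicate 2, and no change is given for it.

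**Figure D2:**
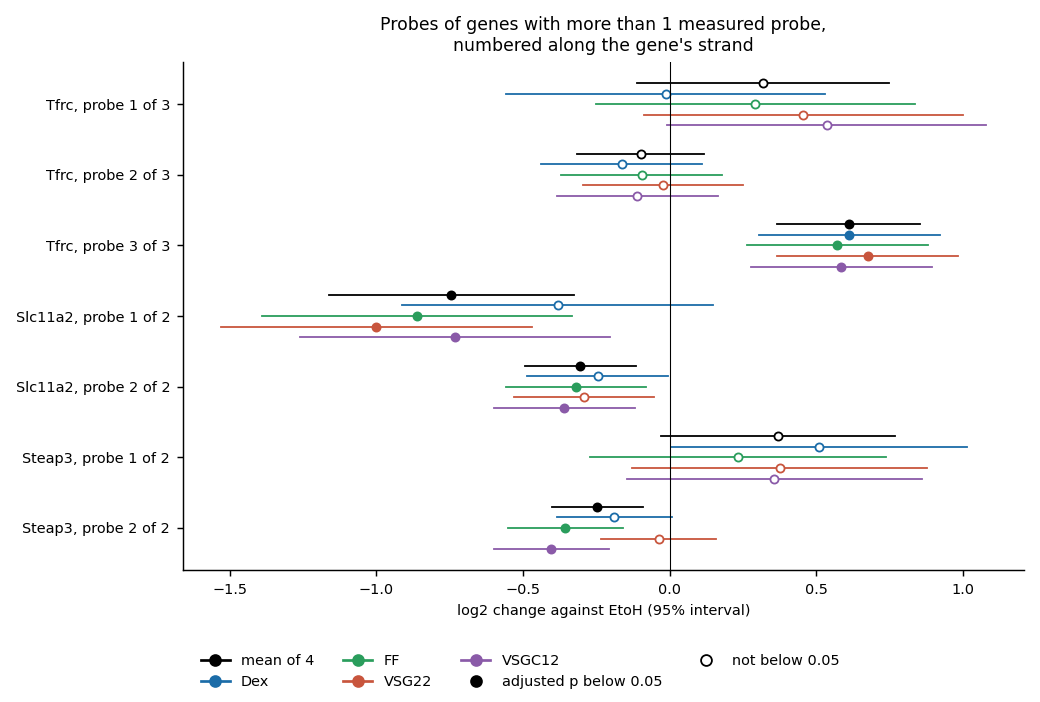
Change against EtoH (x axis, log2) of each probe of Tfrc, Slc11a2 and Steap3, for the mean of the 4 glucocorticoids and for each one. Points are estimates, lines are 95% intervals and filled points have adjusted p below 0.05 over probes. Probe 3 of Tfrc lies to the right of 0 in all 5 comparisons while probe 2 lies just to the left, and the probes of Steap3 lie on opposite sides of 0.

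The ferritin subunit mRNAs were not called under any compound. Fth1, the heavy subunit that oxidises iron on entry, read 9.88 and 9.53 in EtoH, 9.76 and 9.79 in Dex and 10.05 and 9.91 in FF. It read 9.79 and 9.65 in VSG22 and 9.85 and 9.82 in VSGC12. The EtoH arrays spanned most of the other arrays, and both FF arrays were above them. Its change for the mean of the 4 was 0.12 (95% interval -0.11 to 0.36, adjusted p = 0.345 by limma), -0.02 within slide 1 and 0.26 within slide 2. Ftl1, the light subunit that helps form the mineral core, read 9.93 and 9.57 in EtoH, 9.80 and 9.94 in Dex and 10.20 and 10.03 in FF. It read 9.88 and 9.78 in VSG22 and 9.97 and 9.90 in VSGC12. EtoH replicate 2 was the lowest of the 10 arrays, and 4 glucocorticoid arrays lay above both EtoH arrays. Its change for the mean of the 4 was 0.19 (95% interval -0.07 to 0.45, adjusted p = 0.194), 0.03 within slide 1 and 0.34 within slide 2. Under FF, Ftl1 changed by 0.37 (95% interval 0.04 to 0.69, adjusted p = 0.0752) and Fth1 by 0.27 (95% interval -0.03 to 0.57, adjusted p = 0.129). Without EtoH replicate 1 both were called under FF, Ftl1 at 0.55 (adjusted p = 0.0311) and Fth1 at 0.45 (adjusted p = 0.0388). Over the 10 arrays the gene whose pattern was most like that of Fth1 was Ftl1 (Pearson r = 0.971, a description over 10 arrays that share the array scaling). Both genes have processed pseudogenes in the mouse genome, and whether these probes also read transcripts from such copies was not tested.

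Ireb2, which encodes iron regulatory protein 2, was not called under any compound. It read 1.42 and 1.59 in EtoH, 1.63 and 1.31 in Dex and 1.35 and 1.35 in FF. It read 1.30 and 1.43 in VSG22 and 1.43 and 1.23 in VSGC12. Of the 8 glucocorticoid arrays, 5 lay below both EtoH arrays and 1, Dex replicate 1, lay above both. The change for the mean of the 4 was -0.13 (95% interval -0.38 to 0.13, adjusted p = 0.361 by limma), 0.01 within slide 1 and -0.26 within slide 2. The single probes of the members without printed sequence lie on mm9 at chr1:74432161-74432220 (Slc11a1, + strand), chr5:7981239-7981298 (Steap4, + strand), chr19:10059485-10059544 (Fth1, + strand), chr7:52713309-52713368 (Ftl1, - strand) and chr9:54756566-54756625 (Ireb2, + strand).

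Slc40a1, which encodes the exporter ferroportin, fell furthest of the members under each compound. It read -0.13 and -0.27 in EtoH and -1.67 and -1.80 in Dex. It read -2.27 and -2.45 in FF, -2.49 and -2.27 in VSG22, and -2.42 and -1.88 in VSGC12. All 8 glucocorticoid arrays lay far below both EtoH arrays, with the Dex arrays nearest to them. The mean of the 4 was 3.88-fold below EtoH (log2 change -1.96 ± 0.14 SE, adjusted p = 0.000115 by limma), -2.08 within slide 1 and -1.83 within slide 2. The fall was 2.90-fold in Dex (adjusted p = 0.00171), 4.47-fold in FF (adjusted p = 0.000316), 4.53-fold in VSG22 (adjusted p = 0.000297) and 3.86-fold in VSGC12 (adjusted p = 0.000479). These 5 calls held in every alternative run, with a change of the mean of the 4 between -2.10 and -1.33. Processed signals were 289 and 297 in EtoH and 64.1 to 123 under the glucocorticoids, and the probe was well above background on all 10 arrays. Its single probe is shown because the fall of the exporter rests on it, with AATAAA in capitals.
Slc40a1 (A_51_P389988): cctttcaatatccctgagaagAATAAAgaa
It lies on the - strand of mm9 at chr1:45965255-45965314.

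**Figure D3:**
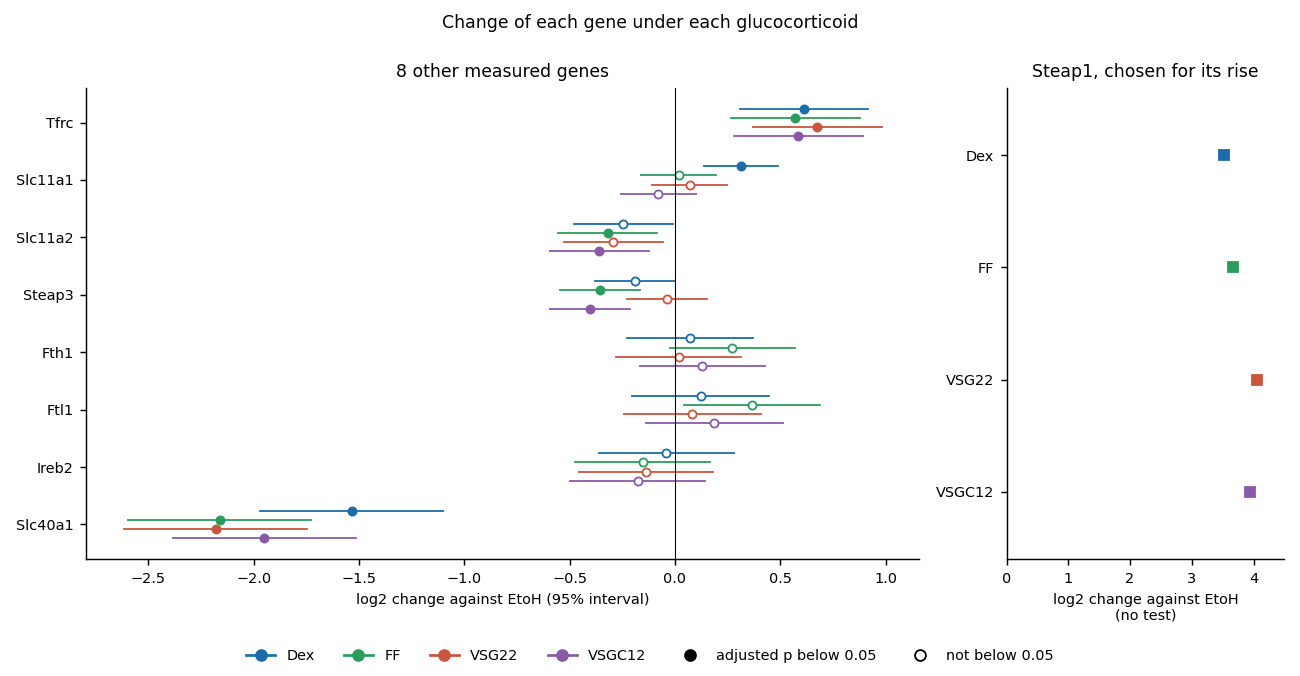
Change against EtoH (x axis, log2) under each glucocorticoid for 8 genes, with 95% intervals and filled points where adjusted p over all genes was below 0.05, and beside it Steap1 with no interval or test. Slc40a1 lies between -1.53 and -2.18, Tfrc between 0.57 and 0.67, and the intervals of Fth1 and Ireb2 include 0 under all 4 compounds.

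Next, the 4 glucocorticoids, given at the same dose and times, were compared with each other, which leaves EtoH out of the differences. The EtoH arrays still enter the spread that the fit shares among the groups. Steap1 is included here and in the counts below, but it was chosen for its rise in these same arrays. Its p-values, its intervals and its part in those counts carry that limit and are read as a description. For each of the 9 measured genes, 6 pairs were compared, 54 comparisons in all. After adjustment over all genes 0 of the 54 was called by limma, while 11 had an unadjusted p below 0.05 and 10 remained below 0.05 when adjusted over the 6 pairs of a gene. The share of all genes that passes over the 6 pairs was not worked out, so the 10 have no background beside them. Over all genes the share called was 0.366% for Dex against FF, 0.549% for Dex against VSG22 and 0.394% for Dex against VSGC12. In these pairs 2602, 3015 and 2678 genes had an unadjusted p below 0.05, and 2, 3 and 3 of the 9 members. The share called was 0% for FF against VSG22, 0.00555% for FF against VSGC12 and 0% for VSG22 against VSGC12. Here 1708, 759 and 1291 genes had an unadjusted p below 0.05, and 2, 0 and 1 of the 9 members. The moderated F-test among the 4 called 0 of the 9 genes, and 0.255% of all genes. Of the 9, 4 had an unadjusted p below 0.05 in it, and that share over all genes was not worked out.

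Steap1 was lower in Dex than in VSG22 by 0.52 (95% interval 0.22 to 0.82, p adjusted over the 6 pairs 0.0266, adjusted over all genes 0.126), by 0.44 within slide 1 and 0.60 within slide 2. It was lower in Dex than in VSGC12 by 0.41 (adjusted over pairs 0.0396, over all genes 0.238) and lower in FF than in VSG22 by 0.38 (0.0396 and 0.517 in the same order). Dex and FF differed by -0.14 (95% interval -0.44 to 0.15), FF and VSGC12 by -0.27 (95% interval -0.56 to 0.03), and VSG22 and VSGC12 by 0.11 (95% interval -0.18 to 0.41), none past the threshold. In the order of its levels, then, no neighbouring pair among the 4 compounds differed past that threshold. Slc40a1 was higher in Dex than in FF by 0.63 (95% interval 0.19 to 1.06) and than in VSG22 by 0.65 (95% interval 0.21 to 1.08), each with p adjusted over the 6 pairs of 0.0343. Over all genes those p-values were 0.236 and 0.167. With the slide as a term in the fit, the p over the 6 pairs was 0.0554 for both of these differences and 0.0503 to 0.0609 for the 3 of Steap1, so none of the 5 passed the threshold. Within slide 1 Slc40a1 was higher in Dex than in FF and VSG22 by 0.61 and 0.82, and within slide 2 by 0.65 and 0.47. For Slc40a1, Dex against VSGC12 differed by 0.41 (95% interval -0.02 to 0.85, adjusted over pairs 0.117), with 0.75 within slide 1 and 0.08 within slide 2.

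Slc11a1 was higher in Dex than in each of the other 3. The difference was 0.30 from FF (95% interval 0.12 to 0.47, adjusted over pairs 0.0169), 0.24 from VSG22 (0.07 to 0.42, 0.0281) and 0.39 from VSGC12 (0.21 to 0.57, 0.00757). Over all genes those p-values were 0.196, 0.188 and 0.125. Within slides the 3 differences ran from 0.23 to 0.45. By its brighter probe, Steap3 was higher in VSG22 than in FF by 0.32 (95% interval 0.13 to 0.51, adjusted over pairs 0.0167) and than in VSGC12 by 0.37 (95% interval 0.18 to 0.56, adjusted over pairs 0.0164). By its other probe those differences were 0.14 (95% interval -0.36 to 0.65) and 0.02 (95% interval -0.49 to 0.52). For Tfrc by its brightest probe the 6 differences lay between -0.10 and 0.09, with 95% intervals inside -0.41 to 0.40. By probe 1 of Tfrc, Dex was below FF by 0.30, below VSG22 by 0.47 and below VSGC12 by 0.55, with 95% intervals for Dex minus the other of -0.85 to 0.24, -1.01 to 0.07 and -1.09 to -0.0047. For Slc11a2 by its brighter probe the 6 differences lay between -0.03 and 0.11, with intervals inside -0.26 to 0.35. By probe 1 of Slc11a2, Dex was above FF by 0.48 (95% interval -0.05 to 1.01), above VSG22 by 0.62 (0.09 to 1.15) and above VSGC12 by 0.35 (-0.18 to 0.88). Adjusted over all probes by limma, those p-values were 0.348 to 0.595 for Tfrc probe 1 and 0.261 to 0.498 for Slc11a2 probe 1, so none was called. In Dex, probe 1 of Tfrc carries the patch flag given above. The 6 differences of Fth1, Ftl1 and Ireb2 had adjusted p over pairs of at least 0.355. Each of the 10 differences named here kept its direction in every alternative run, and each missed the threshold over pairs in 2 to 12 of 19 or 20 alternatives. With the array median all 10 missed it (p 0.0505 to 0.805 over pairs), and with single arrays left out p reached 0.16.

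**Figure D4:**
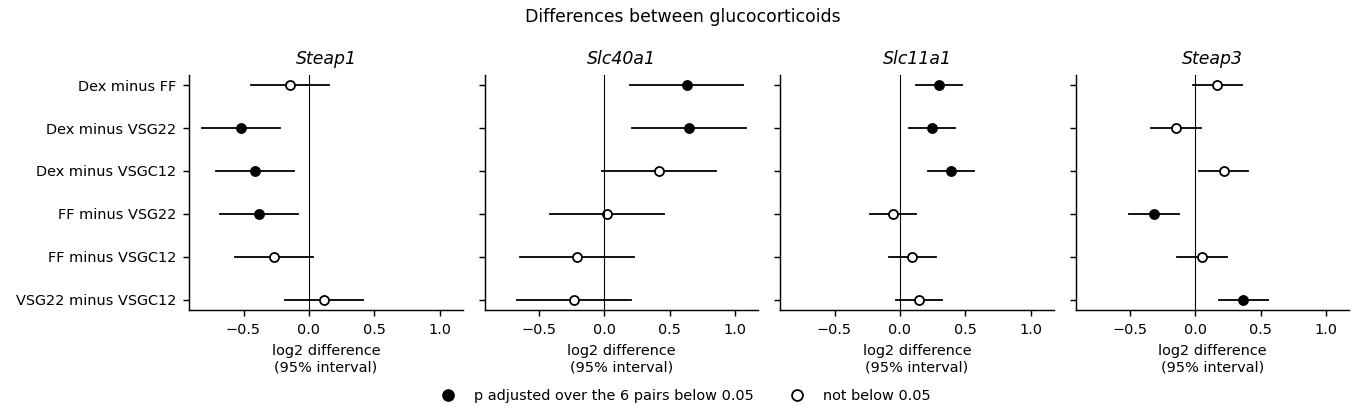
Difference between each pair of glucocorticoids (x axis, log2, named as first minus second) for Steap1, Slc40a1, Slc11a1 and Steap3, with 95% intervals. Filled points have p below 0.05 adjusted over the 6 pairs of a gene, which is 3 pairs for Steap1, 2 for Slc40a1, 3 for Slc11a1 and 2 for Steap3. None was called over all genes. Steap1 was chosen for its rise in these arrays, so its points are a description.

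The genes whose pattern over the 10 arrays was most like Steap1 were Gm11223, Gm6093 and Tmco1, each with Pearson r = 0.998. For Slc40a1 they were Adgra2 (r = 0.993), Hyal1 (r = 0.990) and Hpgds (r = 0.986). For Tfrc they were Wdr36 (r = 0.992), Rrs1 (r = 0.988) and Gm8522 (r = 0.983). These values describe likeness over 10 arrays, in each of which the EtoH arrays stand apart from the rest.

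The wider machinery of iron and haem was described with a list of 63 other genes, of which 48 were measured. Of these, 15 were higher and 6 lower for the mean of the 4 glucocorticoids against EtoH, and 27 were not called. The called share of 43.8% is near the 44.2% over all genes, and the list's median change was 0.08, beside -0.00 over all genes. By role the called share was 66.7% of 3 carriers and ferroxidases, 55.6% of 9 genes of haem breakdown and transport, 53.8% of 13 of iron-sulphur cluster assembly, 50% of 8 of haem synthesis, 25% of 4 other importers and reductases and 18.2% of 11 regulators. With so few genes in each role, nothing is read from these shares against 44.2%. With the array median 11 of the 48 were called, and without EtoH replicate 2 the number was 13.

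Carriers and ferroxidases held 3 measured genes, 2 of them called, and both rose. Cp, which encodes ceruloplasmin, the ferroxidase that works with ferroportin at the cell surface, had a group mean of 2.62 ± 0.07 in EtoH (SD, n = 2 in each group). Its group means were 5.53 ± 0.06 in Dex, 5.73 ± 0.03 in FF, 5.89 ± 0.18 in VSG22 and 5.82 ± 0.09 in VSGC12. The rise was 8.71-fold (log2 change 3.12 ± 0.09 SE, adjusted p = 3.68e-06 by limma). Lcn2, which encodes a protein that binds bacterial siderophores, rose 1.62-fold (0.70 ± 0.06 SE, adjusted p = 0.000266). Trf, the gene for transferrin, had a difference of -0.78 ± 0.34 SE and was not called (adjusted p = 0.102). Of the 9 measured genes of haem breakdown, transport and scavenging, 2 rose and 3 fell. Hp, whose product haptoglobin binds free haemoglobin, had a change of 5.00 ± 0.08 SE, and Hmox1, whose product opens the haem ring and frees its iron, had a change of -1.86 ± 0.05 SE. Lrp1, the receptor for haem bound to haemopexin, had a change of -0.79 ± 0.17 SE (adjusted p = 0.00903), and without EtoH replicate 2 its change was -0.68 with adjusted p = 0.0856.

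Of the 11 measured regulators, 1 rose and 1 fell. Hfe, whose product binds the transferrin receptor, rose 1.92-fold (0.94 ± 0.06 SE, adjusted p = 6.85e-05), from 0.88 ± 0.05 in EtoH to between 1.71 ± 0.08 in FF and 1.89 ± 0.03 in VSG22. Bach1, a haem-binding repressor of Hmox1, changed by -0.40 ± 0.13 SE (adjusted p = 0.0444). In 9 of 20 alternatives Bach1 was not called, among them those without EtoH replicate 1 (-0.48) or EtoH replicate 2 (-0.31). Hamp, the gene for the hormone hepcidin that acts on ferroportin, was below detection on all arrays. Of the other importers and reductases 4 were measured and 1 rose, Slc39a14, a metal importer (0.37 ± 0.07 SE, adjusted p = 0.00734). Without EtoH replicate 1 its change was 0.27 with adjusted p = 0.0752. Of 8 measured genes of haem synthesis, 3 rose and 1 fell, led by Cpox (0.61 ± 0.09 SE, adjusted p = 0.00258). Alad (0.31, adjusted p = 0.0225) and Uros (0.29, adjusted p = 0.0367) also rose, and both calls were lost without EtoH replicate 2 (0.22 and 0.25, adjusted p 0.188 and 0.205). Uros was not called in 11 of 20 alternatives. Of 13 genes of iron-sulphur cluster assembly, 6 rose and 1 fell, among them Iscu at 0.51 ± 0.06 SE and Glrx5 at 0.51 ± 0.06 SE (adjusted p 0.000883 and 0.00112). Iscu encodes the scaffold on which such clusters are built, and Glrx5 a carrier of finished clusters.

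**Figure D5:**
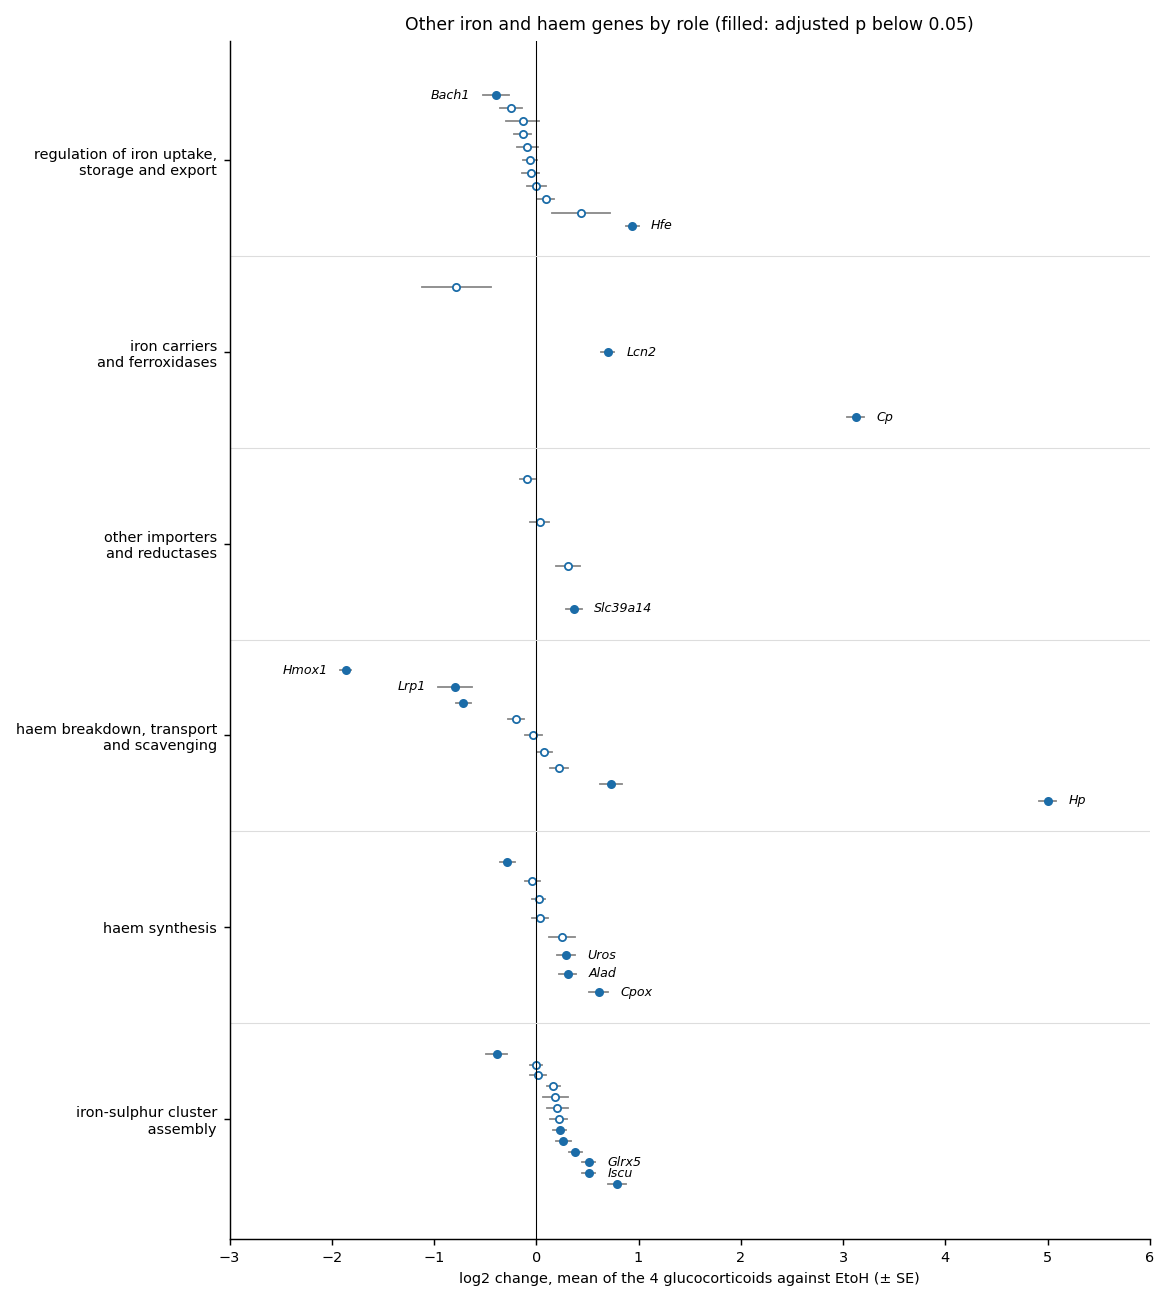
Change of 48 other iron and haem genes (x axis, log2, mean of the 4 glucocorticoids against EtoH, with SE) grouped by role (y axis), filled where adjusted p was below 0.05. Cp at 3.12 and Hp at 5.00 lie far to the right and Hmox1 at -1.86 to the left, while 27 open points lie nearer to 0.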

How the data were processed

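RNA of 10 samples was hybridised to single-channel Agilent arrays. Per the file headers, the deposited values are intensities from Agilent Feature Extraction 10.7.3.1, background-subtracted and detrended within each array and not scaled between arrays. The submitters' processing notes name limma without its step. Outlier spots were left out, log2 processed signals were averaged per probe and scaled by subtracting the 75th percentile of each array. A gene was read by its brightest probe among those that all arrays of some group showed well above background. Symbols came from the GRCm38.p6 RefSeq table, used for names only.

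One limma fit (version 3.58.1, in R 4.3.3) took the 5 groups, with 5 residual degrees of freedom, two-sided tests and Benjamini-Hochberg adjustment over genes. The script was tested on simulated data. Replicate numbers follow 2 slides, each with all 5 groups. Deviations correlated by slide with r from -0.03 to 0.33, highest among Dex, FF and VSGC12 (0.27 to 0.33). The main fit did not take the numbers as pairs, so values within slides and a fit with a slide term are given. Alternatives covered scaling, background, filter, probe choice, local patches, slide and single arrays.

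The members and lists were chosen with earlier results of these data known. Named genes are all members with each probe, up to 3 called genes per role of the wider list, the 3 most alike genes of Steap1, Slc40a1 and Tfrc, and called markers by count. Some genes that this rule names are not reported here. Trf, Hamp and the likeness of Fth1 to Ftl1 were chosen after their values were seen.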

Additional observations from a re-analysis of the deposited data

How the results depend on the processing

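Among the members' changes called against EtoH, the fall of Slc40a1 kept its call and direction in each alternative run. The number of members called for the mean of the 4 was 4, and it was 2 with the array median, with no filter on dim probes and with the probes of a gene averaged. With the array median and without the filter the 2 were Tfrc and Slc40a1, and with averaged probes Slc11a2 and Slc40a1. Under Dex the 3 calls became 1 with the array median and 1 without the filter. Under FF the 4 became 1, 1 and 2 with the array median, without the filter and with averaged probes. Under VSG22 the 2 became 1 with the array median, and under VSGC12 the 4 became 1, 1 and 2 in the same order as for FF. With averaged probes the count under VSG22 stayed at 2, with Slc11a2 in place of Tfrc. With arrays left out in turn these counts ran from 2 to 4 for the mean, 1 to 4 under Dex, 2 to 4 under FF, 1 to 3 under VSG22 and 2 to 4 under VSGC12. The wider list had 21 calls, 11 with the array median, and 13 to 23 with arrays left out. Over all genes 7961 were called, 3760 with the array median, 4925 without the filter and 4670 to 8937 with arrays left out. The normexp background gave 1 call among the 54 pairs, Slc11a1 in Dex against VSGC12 (0.59, adjusted p = 0.044). The cause of these shifts was not tested.

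With the slide as a replicate block, the mean of the 4 gave the same count of 4 called members and 22 called genes of the wider list, and 8340 over all genes. No call of a member against EtoH changed with that block, while the p over 6 pairs of the differences of Slc40a1 and Steap1 rose to between 0.0503 and 0.0609.

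Directions turned as follows. With quantile normalization the sign turned for Slc11a1 for the mean of the 4 (-0.0015) and under FF (-0.094), and under Dex for Fth1 (-0.071) and Ftl1 (-0.012). With the percentile over probes detected on all arrays it turned for Slc11a1 under FF (-0.063) and for Fth1 under Dex (-0.017) and VSG22 (-0.037), and with the normexp background for Slc11a1 under FF (-0.083). With the array median it turned for Slc11a1 under VSGC12 (0.093), Ireb2 under Dex (0.053) and Steap3 under VSG22 (0.083). With averaged probes Steap3 turned for the mean (0.061), Dex (0.16) and VSG22 (0.17), and with its other probe it read 0.37. Tfrc turned by its second probe (-0.098). Fitting each probe was chosen after seeing the data. With arrays left out in turn, Slc11a1 under FF ran from -0.026 to 0.060. Fth1 ran from -0.050 to 0.295 for the mean, -0.10 to 0.244 under Dex, -0.16 to 0.190 under VSG22 and -0.042 to 0.303 under VSGC12. Ftl1 ran from -0.059 to 0.304 under Dex and -0.098 to 0.265 under VSG22. Ireb2 under Dex ran from -0.201 to 0.12. Signal near background limits Steap4, which gives no change.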
